A study of Mus musculus with 2 samples.

Results

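The genes described here are the nuclear genes for the subunits of the mitochondrial respiratory chain and the ATP synthase, read in single cells of inflamed mouse gingiva. They were taken by symbol: every listed gene that starts with Nduf, Uqcr, Atp5 or Cox4 to Cox8, without predicted (Gm) and pseudogene (-ps) names, and with at least 20 unique molecular identifiers (UMIs) over both libraries. Of the 32285 genes listed, 89 had such a symbol and 86 reached the minimum. They divide into 36 subunits of complex I, 8 complex I assembly factors (the Ndufaf genes), 8 genes of complex III, 17 of complex IV and 17 of the ATP synthase. Cox7b2 and Cox8c, with 0 UMIs each, and Ndufa4l2, with 8, fell under the minimum, while Cox4i2 with 25 and Cox8b with 36 lay just above it. Ndufa4 was counted with complex IV, where its protein is now placed. The rule used names and abundance only, so levels across cells and libraries were not part of the choice.

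Oxidative phosphorylation passes electrons from NADH through complex I, ubiquinone, complex III and cytochrome c to oxygen at complex IV, and the proton gradient so built drives the ATP synthase. Most subunits are made from nuclear genes and imported, while a small core is encoded by mitochondrial DNA, so a complete complex needs both sources. In this tissue the pathway is known for its contrasts: mature neutrophils rely mainly on glycolysis and hold few mitochondria, macrophages use respiration to varying degrees, and bone-resorbing osteoclasts are packed with mitochondria.

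Both groups were mice examined 12 weeks after bone marrow transplantation (BMT), with ligature-induced periodontitis for 5 days, and CD11b+ gingival cells were sorted from each. The marrow was labelled 10% Tet2-/- BMT in 1 group and 10% Tet2+/+ BMT in the other; Tet2 encodes an enzyme that oxidises 5-methylcytosine. There was 1 library per group, and the labels give neither the number of mice behind a library nor where in Tet2 the deletion lies. The design text gives the sort as CD45.2+CD11b+ for the Tet2-/- group and CD45+CD11b+ for the Tet2+/+ group, whereas both sample titles read CD45.2+CD11b+; which of these held for the Tet2+/+ group is not settled by the labels. Wherever a pair of values is given below, the library labelled 10% Tet2-/- BMT comes first and the library labelled 10% Tet2+/+ BMT second. With 1 library a group, differences between libraries have no replicate check and were not tested; intervals are exact 95% limits that cover counting error only.

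Kept cells numbered 9596 and 11672, with 85289763 and 87908757 UMIs and medians of 5920 and 5009 UMIs per cell. Only 31 kept barcodes were shared between the libraries. Tet2 itself stood at 97.8 and 81.7 UMIs on a per-million scale (CPM, of the UMIs of the same cells) over all kept cells and so was not lower in the library labelled Tet2-/-; UMIs count the 3′ end of a transcript, so this does not check a deletion elsewhere in the gene. Xist, the transcript of the inactive X chromosome, stood at 375 and 0.0796 CPM and the Y-linked genes summed to 21.0 and 167 CPM. The libraries thus differed in the sex of most of their cells. By class the Y-linked sum was 59.2 and 155.7 CPM in macrophage-like, 18.1 and 213 CPM in neutrophil-like and 7.34 and 153.5 CPM in monocyte-like cells. Among these classes the contrast was least complete in macrophage-like cells. Clusters of cells, made without any of the 86 genes, were given a cell type name ending in "-like" from marker lists; clusters that met no list cleanly are called by their leading genes. T, B, NK and epithelial-like cells were present although the sort was for CD11b+ cells. The 12 neutrophil markers summed to 231732 and 235796 CPM in neutrophil-like cells and to 13185 and 15666 CPM in macrophage-like cells. The 12 macrophage markers summed to 656 and 741 CPM in the former and 50796 and 42667 CPM in the latter.

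The 86 genes together made up 1.56% of all UMIs of kept cells, and their summed level was 6.79-fold and 5.60-fold higher in the highest than in the lowest cell type. It was highest in osteoclast-like cells, at 48248 CPM (47926 to 48571) and 47988 CPM (47610 to 48369), and lowest in neutrophil-like cells, at 7104 CPM (7064 to 7145) and 8568 CPM (8528 to 8608). Monocyte-like cells followed the osteoclast-like cells at 22453 and 20952 CPM. Between the extremes the order differed a little by library: NK cell or ILC-like cells stood at 19644 and 18901 CPM, dendritic-like cells at 18888 and 19605 CPM, T cell-like cells at 17568 and 17647 CPM and epithelial-like cells at 17411 and 20922 CPM. Lower again were immature neutrophil-like cells at 16143 and 15541 CPM, macrophage-like cells at 14860 and 15588 CPM, B cell-like cells at 14143 and 15127 CPM and the few mast cell or basophil-like cells (10 and 37) at 9923 and 13024 CPM. The counting intervals of the immature neutrophil-like and macrophage-like cells overlapped in the library labelled Tet2+/+ and did not in the other, so their order in the former is within counting error. Barcodes with 1 to 50 UMIs, taken as free RNA, carried 17235 and 17665 CPM of these transcripts, more than the neutrophil-like cells did.

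**Figure D1:**
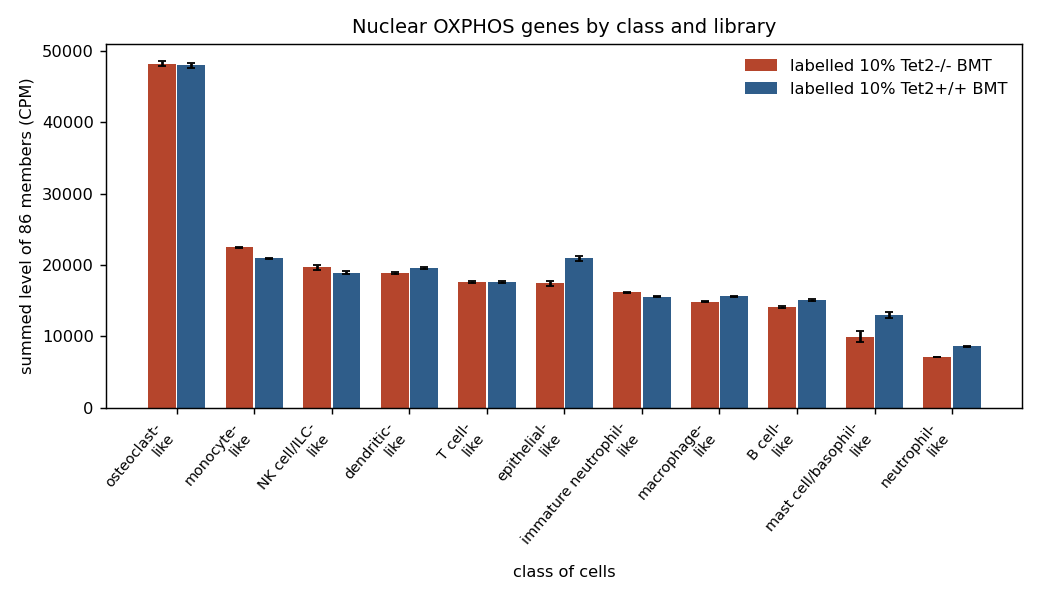
Summed level of the 86 genes (CPM, vertical axis from 0) in each of 11 marker-named cell classes (horizontal axis), with 1 bar per library and exact Poisson 95% limits. Osteoclast-like cells stand at 48248 and 47988 CPM and neutrophil-like cells at 7104 and 8568 CPM, and the widest gap between libraries relative to level is in the mast cell or basophil-like class, at 9923 and 13024 CPM.

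The gaps between neutrophil-like, macrophage-like and osteoclast-like cells were also seen in the median share per cell. Random thinning leaves the expected share of a cell unchanged, so the thinned values are no check on depth. When each cell was thinned to 1000 UMIs, the median share of these transcripts per cell was 0.7% and 0.8% in neutrophil-like cells, 1.4% and 1.5% in macrophage-like cells and 4.5% and 4.6% in osteoclast-like cells. Without thinning the medians were 0.681% and 0.788% in neutrophil-like cells, 1.39% and 1.55% in macrophage-like cells and 4.19% and 4.40% in osteoclast-like cells. In the medians per cell, cell types close to each other did not all keep the order of their summed levels, with or without thinning. Immature neutrophil-like cells had a thinned median of 1.3% in each library and 1.36% and 1.24% without thinning, under the macrophage-like cells. Epithelial-like cells of the library labelled Tet2+/+ had 2.05% beside 2% in monocyte-like cells, and 2.10% beside 1.97% without thinning. Thinning left out 75 and 129 neutrophil-like, 53 and 89 macrophage-like and no osteoclast-like cells, because they held fewer UMIs.

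All 4 subunit groups followed that order. Complex I, the NADH dehydrogenase, summed to 2059 and 2483 CPM in neutrophil-like, 4350 and 4546 CPM in macrophage-like, 6626 and 6041 CPM in monocyte-like and 13042 and 12701 CPM in osteoclast-like cells. Complex III, the ubiquinol-cytochrome c reductase, had the lowest sums of the 4 groups, with 602 and 721, 1432 and 1483, 2064 and 1992, and 5494 and 5706 CPM in the same order. Complex IV, the cytochrome c oxidase, ran from 2209 and 2632 CPM in neutrophil-like to 13740 and 13751 CPM in osteoclast-like cells, and the ATP synthase from 2175 and 2664 CPM to 15615 and 15483 CPM. The assembly factors, which help build complex I and are not part of it, were scarce everywhere, at 59.3 and 68.5 CPM in neutrophil-like and 356 and 347 CPM in osteoclast-like cells. These are counts of transcript ends, so no gene length enters, and genes with near-identical processed copies in the genome may have lost UMIs that mapped to both.

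Member by member the profile over classes was shared to a large extent. Of the 86 genes, 78 reached 50 CPM in at least 1 class, and 74 of these were highest in osteoclast-like cells in both libraries. Those 74 comprised 34 of 36 complex I genes, all 8 of complex III, all 12 of complex IV, all 17 of the ATP synthase and 3 of 5 assembly factors. At the other end, 70 of the 78 were lowest in neutrophil-like cells in both libraries. The exceptions at the top were Ndufaf7, Ndufaf3, Ndufv3 and Ndufb7, the last 2 of which were highest in immature neutrophil-like cells in the library labelled Tet2+/+. These counts describe classes of very different size, and the osteoclast-like class held 38 and 26 cells.

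**Figure D2:**
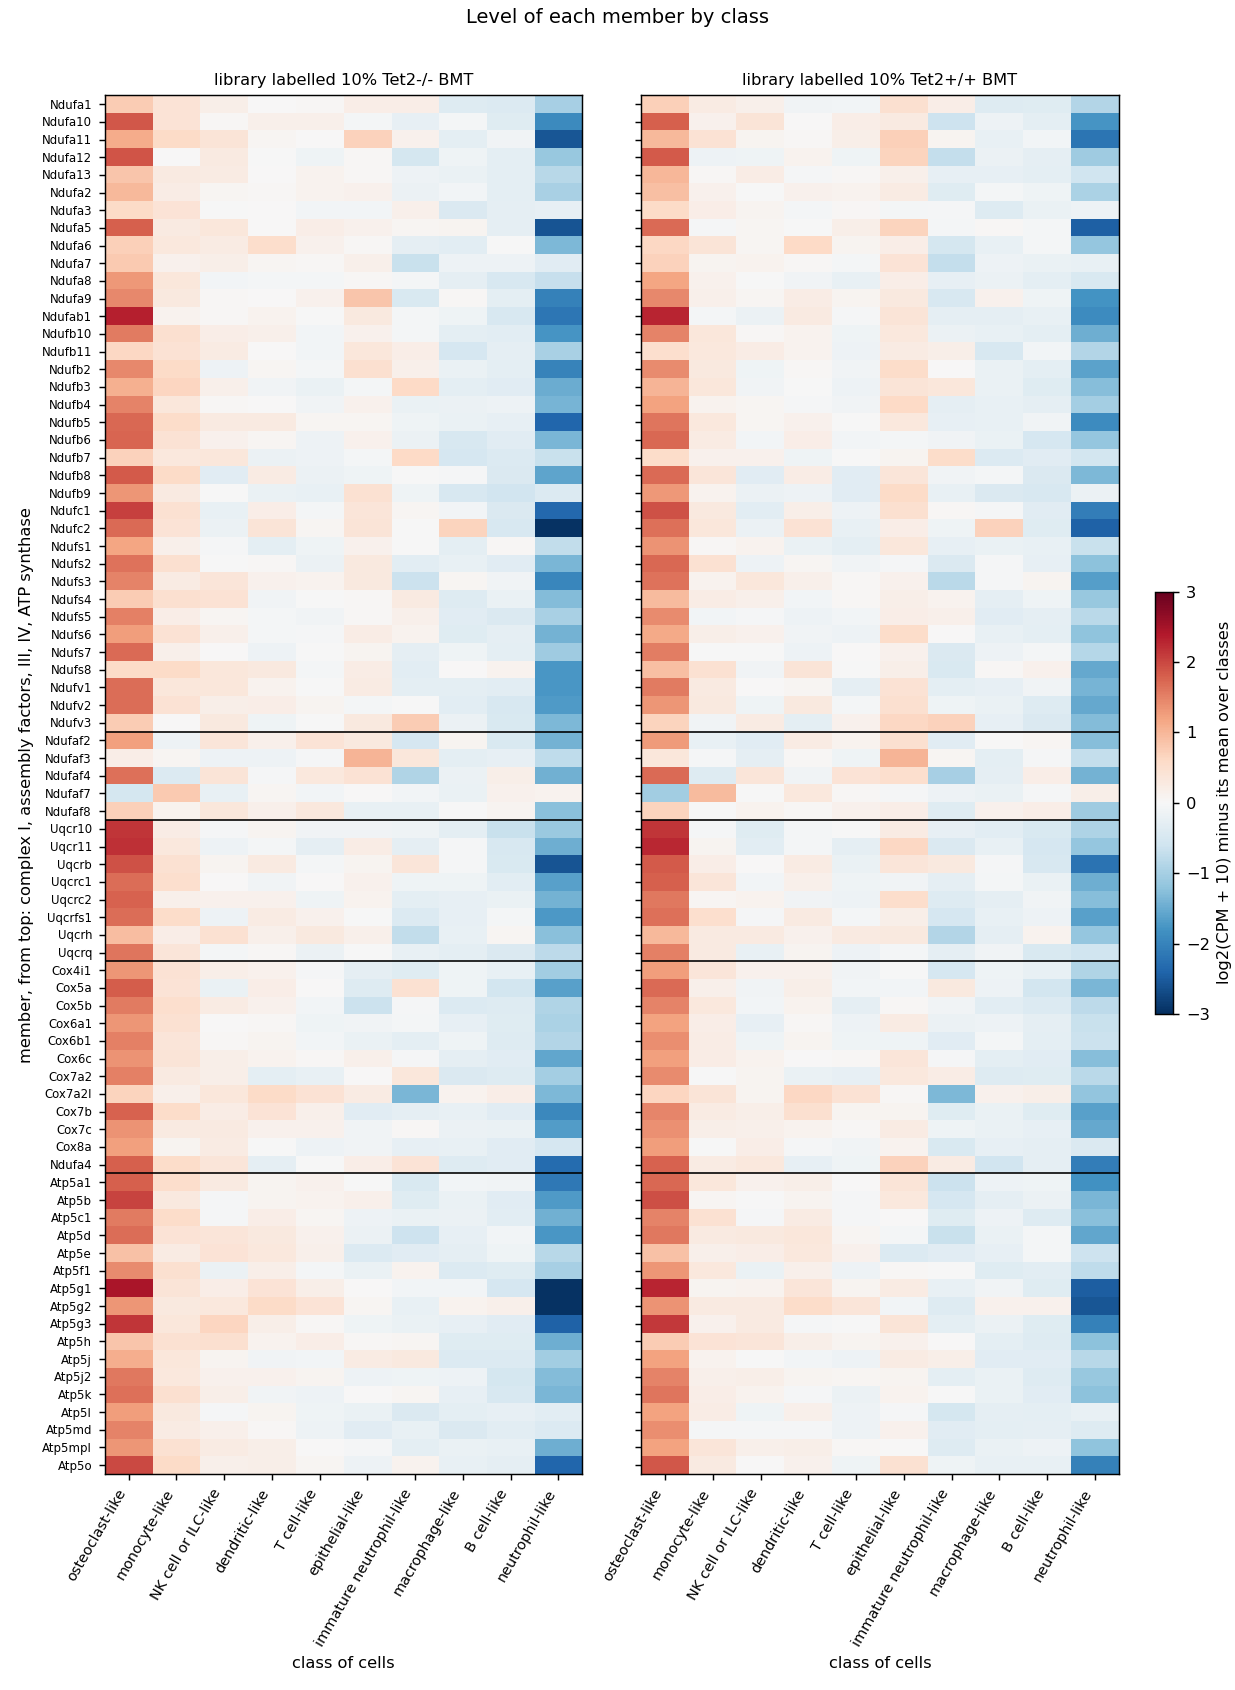
Level of each of 78 genes (rows, grouped by complex) in 10 cell classes (columns), as log2(CPM + 10) minus the gene's mean over the classes, with 1 panel per library and a colour scale cut at both ends. The osteoclast-like column is high and the neutrophil-like column low in nearly every row, and Ndufaf7 and Cox7a2l are rows that depart from this.

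Departure from the shared profile was measured as the root mean square difference, on the log2 scale, between the class levels of a gene and those of the summed level, each centred on its mean. Among the 78 genes at 50 CPM or more in some class, the median of this distance was 0.27, and the largest values were 0.86 for Ndufaf7, 0.59 for Ndufc2 and 0.58 for Atp5g1. Ndufaf7, a methyltransferase that acts on a complex I core subunit during assembly, was highest in monocyte-like cells (46.7 and 50.8 CPM) and stood at only 12.9 and 5.46 CPM in osteoclast-like cells. Ndufaf3, an early assembly factor, was highest in epithelial-like cells, at 69.4 and 71.9 CPM, against 35.3 and 40.6 CPM in osteoclast-like cells. By contrast Ndufaf4, which works together with Ndufaf3, followed the main pattern with 77.9 and 85.9 CPM in osteoclast-like and 14.9 and 14.5 CPM in macrophage-like cells. Assembly factors therefore differed among themselves in where they were highest.

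Cox7a2l encodes a factor of respiratory supercomplexes that resembles the complex IV subunit Cox7a2. Its transcript was lowest in immature neutrophil-like cells in both libraries, at 112 and 103 CPM, next to 115 and 117 CPM in neutrophil-like cells. The level was 330 and 306 CPM in macrophage-like cells and 496 and 441 CPM in osteoclast-like cells. Cox7a2 itself stood at 426 and 410 CPM in immature neutrophil-like cells. The supercomplex factor was thus as low in immature as in mature neutrophil-like cells, unlike most subunits.

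Osteoclast-like cells carried the most of every complex. Against macrophage-like cells, the summed level was 3.25-fold higher (3.22 to 3.28) in the library labelled Tet2-/- and 3.08-fold higher (3.05 to 3.11) in the library labelled Tet2+/+. Of the 4 complexes, complex III stood furthest apart, at 3.84-fold and 3.85-fold, and complex I least, at 3.00-fold and 2.79-fold. Single genes were compared where they had at least 50 CPM in either class and 100 UMIs over both, on log2(CPM + 10), and called past a size limit of 2-fold in both libraries. Of 76 members that met this, 65 were higher in osteoclast-like cells, against 21% of all 3200 genes compared the same way. Their median log2 differences were 1.72 and 1.64, beside 0.24 and 0.22 over all genes. By complex, 27 of 36 complex I genes, 8 of 8 of complex III, 11 of 12 of complex IV, 17 of 17 of the ATP synthase and 2 of 3 assembly factors were past the limit. Since the minimum can be met through the higher class alone, the 76 are not all members.

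Within complex I the widest gap was that of Ndufab1, the mitochondrial acyl carrier protein, with 512 and 505 CPM in osteoclast-like and 85.8 and 77.9 CPM in macrophage-like cells, a ratio of 5.97 and 6.49. Ndufs8, an iron-sulfur subunit of the core, differed least, with 142 and 177 CPM against 93.0 and 92.3 CPM, a ratio of 1.53 and 1.92. The accessory acyl carrier and the core subunit thus lay at opposite ends of the same complex. In complex III, Uqcr10, a small accessory subunit, stood at 998 and 1058 CPM against 178 and 185 CPM, a ratio of 5.61 and 5.73, while Uqcrh, the hinge protein beside cytochrome c1, was 2.26-fold and 2.38-fold higher. In complex IV, Ndufa4 stood at 1137 and 1186 CPM against 246 and 227 CPM, a ratio of 4.63 and 5.23, and Cox7a2l was 1.5-fold and 1.44-fold higher. Among ATP synthase genes, Atp5g1, one of the genes for the membrane ring subunit c, reached 1225 and 1097 CPM against 203 and 201 CPM, a ratio of 6.03 and 5.45. Atp5e, the epsilon subunit of the catalytic head, was nearest at 1194 and 1354 CPM against 536 and 617 CPM, a ratio of 2.23 and 2.19. In every one of these genes the osteoclast-like value of each library lay above both macrophage-like values.

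Osteoclast-like cells were also the deepest, with a mean of 46948 and 49274 UMIs per cell, and all 38 and 26 of them remained when the cells with doublet scores in the top 8% were left out. The 9 osteoclast markers, from which the class was named, summed to 12814 and 16230 CPM there. They summed to 1729 and 1802 CPM in neutrophil-like cells and to 275 and 319 CPM in macrophage-like cells. Ctsk, the collagen-degrading protease of osteoclasts and 1 of these markers, stood at 4952 and 5793 CPM against 1.56 and 3.82 CPM in macrophage-like cells. Mitochondrially encoded transcripts did not share the gap: the 13 genes summed to 41447 and 49697 CPM in osteoclast-like and 40612 and 36683 CPM in macrophage-like cells, a ratio of 1.02 and 1.36, and 0 of 12 compared genes passed the limit. Cells above 10% mitochondrial UMIs had been removed, which caps this sum. Among nuclear lists, 4 of 4 complex II genes, 2 of 2 cytochromes, 5 of 6 metabolite carriers, 7 of 10 glycolytic genes and 1 of 1 ATP synthase regulator were past 2-fold, as were 1 of 2 complex III assembly and 1 of 4 complex IV assembly genes. None of the 6 other complex I assembly genes met the minimum. Of 10 regulators on the list, 2 met the minimum and 1 was past 2-fold: Ppargc1b, a coactivator of mitochondrial biogenesis, stood at 86.3 and 92.1 CPM in osteoclast-like, 7.79 and 6.55 CPM in macrophage-like and 0.0590 and 0.193 CPM in neutrophil-like cells. Tfam, which packages and transcribes mitochondrial DNA, stood at 36.4 and 31.2, 17.97 and 19.5, and 1.24 and 2.76 CPM in the same classes.

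Macrophage-like cells exceeded neutrophil-like cells in the summed level by 2.09-fold (2.08 to 2.11) and 1.82-fold (1.81 to 1.83). Complex IV was nearest, at 1.98-fold and 1.74-fold, followed by the ATP synthase at 2.10-fold and 1.81-fold, complex I at 2.11-fold and 1.83-fold, complex III at 2.38-fold and 2.06-fold and the assembly factors at 2.50-fold and 2.25-fold. Of 71 members that met the minimum, 36 were past 2-fold higher in macrophage-like cells in both libraries and 0 were lower. Over all genes the shares were 31.6% and 18.4%. In neutrophil-like cells only 47 members met the minimum in either library, so part of the 71 met it through macrophage-like cells alone. The median log2 differences were 1.18 and 1.02, beside 0.35 and 0.30 over all genes, and 67 of the 71 were above 0 in both libraries and 2 below 0 in both. Those past the limit were 16 of 33 complex I genes, 4 of 8 of complex III, 5 of 12 of complex IV, 10 of 17 of the ATP synthase and 1 of 1 assembly factor. When the Siglecf and Scimp cluster described further on was counted with the neutrophils, a choice made after seeing the data, 11 rather than 36 members were past 2-fold; with all unnamed neutrophil clusters added, 15 were.

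**Figure D3:**
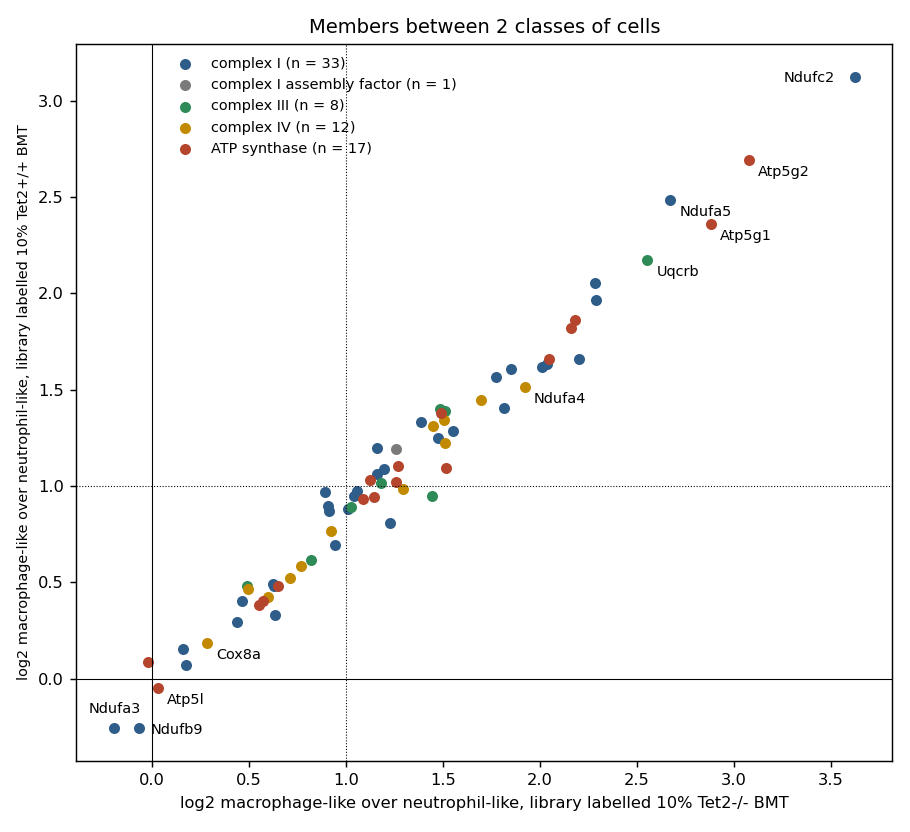
Difference between macrophage-like and neutrophil-like cells for each of 71 genes, as log2 of the ratio of CPM + 10, in the library labelled Tet2+/+ against the library labelled Tet2-/-, coloured by complex, with dotted lines at a 2-fold difference. Points follow the diagonal from Ndufa3 and Ndufb9 just below 0 to Ndufc2 at the top, and 36 lie past 2-fold on both axes.

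The gap was very uneven within each complex. Ndufc2, an accessory subunit of the complex I membrane arm, stood at 229 and 227 CPM in macrophage-like but only 9.33 and 17.1 CPM in neutrophil-like cells, a ratio of 24.5 (20.8 to 29.0) and 13.2 (11.8 to 14.9). Free RNA held 123 and 99.0 CPM of it, well above the neutrophil-like level. Ndufa3, another small accessory subunit of complex I, was the reverse, with 149 and 199 CPM against 172 and 239 CPM, a ratio of 0.864 and 0.832. Members of the same complex thus ranged from a wide gap to none. Ndufa5, of the peripheral arm, resembled Ndufc2, with 88.7 and 91.8 CPM against 5.49 and 8.17 CPM. Ndufb9, of the membrane arm, resembled Ndufa3, with 176 and 172 CPM against 185 and 208 CPM.

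In complex III, Uqcrb, the ubiquinone-binding protein, stood at 204 and 213 CPM in macrophage-like and 26.4 and 39.4 CPM in neutrophil-like cells, a ratio of 7.72 and 5.41, and at 182 and 169 CPM in free RNA. Uqcrq differed least there, with 210 and 248 CPM against 147 and 174 CPM, a ratio of 1.43 and 1.42. In complex IV, Ndufa4 was 4.28-fold and 3.11-fold higher (246 and 227 CPM against 57.5 and 72.9 CPM). Cox8a, a small structural subunit of the oxidase, was only 1.22-fold and 1.14-fold higher (634 and 676 CPM against 520 and 593 CPM). In the ATP synthase, Atp5g2, a second gene for ring subunit c, stood at 369 and 346 CPM against 34.9 and 45.1 CPM, a ratio of 10.6 (9.68 to 11.6) and 7.67 (7.11 to 8.28), with 340 and 305 CPM in free RNA. Atp5l, subunit g of the membrane part, did not separate the classes, with 469 and 494 CPM against 459 and 511 CPM, a ratio of 1.02 and 0.967. Among assembly factors only Ndufaf8 met the minimum, with 57.8 and 64.8 CPM against 18.4 and 22.7 CPM. For Ndufc2, Uqcrb and Atp5g2 the level in free RNA lay between the levels of both classes in each library.

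As examples of control regions, the 250 bases before the RefSeq start (GRCm38.p6) are printed for Atp5l and Ndufc2. Atp5l (chr9:44920743-44920992, minus strand) is a member at nearly the same level in both classes. Ndufc2 (chr7:97399753-97400002, plus strand) is the member with the widest gap. Ndufa3 and Ndufb9 had lower ratios than Atp5l and are not printed. Capitals mark matches, on either strand, to an NRF1 core (TGCGCATGC) and an ETS element (CCGGAAG); NRF1 and the ETS factor GABP are known regulators of respiratory genes.

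Atp5l: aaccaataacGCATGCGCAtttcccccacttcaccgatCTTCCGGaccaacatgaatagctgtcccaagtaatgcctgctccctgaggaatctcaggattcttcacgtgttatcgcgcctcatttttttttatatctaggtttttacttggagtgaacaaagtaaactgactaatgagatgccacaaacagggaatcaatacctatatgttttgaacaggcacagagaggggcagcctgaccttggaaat

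Ndufc2: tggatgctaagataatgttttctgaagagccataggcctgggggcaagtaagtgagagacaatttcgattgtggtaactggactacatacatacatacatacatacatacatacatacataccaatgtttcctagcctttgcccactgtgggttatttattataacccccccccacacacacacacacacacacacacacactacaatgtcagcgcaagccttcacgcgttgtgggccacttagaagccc

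The Atp5l stretch holds 1 match to each motif, both on the reverse strand of the printed sequence, and the Ndufc2 stretch holds none. The window of Ndufa3, which was lower in macrophage-like cells, holds no match to either motif, so the printed pair does not stand for a rule. RefSeq windows, 250 bases before and 50 after the start, were found for 72 of the 86 genes. In these the NRF1 core was present in 6 (8.33%, beside 1.59% of all 27025 windows), the ETS element in 16 (22.2%, beside 9.12%), the YY1 element AAGATGGCG in 7 (9.72%, beside 1.49%) and the GC box GGGGCGG in 21 (29.2%, beside 23.4%). At least 1 of the first 3 was present in 27 windows (37.5%, beside 11.6%). Members with an ETS match (n = 15) had a median log2 macrophage-like over neutrophil-like difference of 0.89 in each library, and those without (n = 46) 1.42 and 1.16. For the GC box the medians were 1.01 and 0.88 with a match (n = 17) and 1.41 and 1.16 without (n = 44), and these members overlap those above. They lay closer together for the NRF1 core, 1.04 and 0.95 with (n = 5) and 1.21 and 1.05 without (n = 56), and for YY1, 1.10 and 0.96 with (n = 6) and 1.23 and 1.06 without (n = 55). A match did not go with a small gap in every gene: Atp5g2, with the widest gap of the ATP synthase, holds an NRF1 core and a GC box. These are letter matches in a window and not sites shown to be bound.

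Monocyte-like cells were compared with macrophage-like cells, towards which monocytes can mature. None of 73 members was past 2-fold in either direction in both libraries, while of 3006 genes 184 (6.12%) were higher and 233 lower. Yet 70 members were above 0 in both, and their median log2 difference was 0.61 and 0.40, beside 0.26 and 0.20 over all genes. The difference was thus small, and part of it was shared with other genes. Ndufb11, of the complex I membrane arm, was 1.97-fold and 1.79-fold higher in monocyte-like cells and Ndufa4 1.94-fold and 1.80-fold, while Ndufc2 was at 0.833 and 0.779 of the macrophage-like level. The proliferating cluster led by Pclaf and Top2a carried the highest sum among monocyte-like clusters, 26274 and 26669 CPM, against 21521 and 20778 CPM in the cluster led by Fn1 and Ccr2 and 14856 and 15231 CPM in the Ace cluster.

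The unnamed Siglecf and Scimp cluster is described further on and is left out here. Also left out are the unnamed Obp2a and Obp1a cluster and the unnamed Ccl8 and C1qa cluster. Their best list was that of neutrophils too, but gland or macrophage genes led them. Among the clusters of the neutrophil lineage, the summed level was highest where early granule genes led and lower where later ones did. The cluster led by Elane and Prtn3, genes of early granules, held 17323 and 18277 CPM. Its leading genes also held Hist1h1b and Ube2c, as did those of the proliferating Pclaf and Top2a cluster. Proliferation and granule stage were not told apart here. The cluster led by Camp and Orm1, genes of later granules, held 11112 and 10857 CPM. The Ltf and Ngp cluster followed at 9224 and 10723 CPM, the Mmp8 and Ltf cluster at 8340 and 8353 CPM and the Retnlg and Mmp8 cluster at 6506 and 6516 CPM. Among other mature clusters the Csf3r and Slc40a1 cluster held 9677 and 10634 CPM, the interferon-marked Ifit1 and Rsad2 cluster 8773 and 11641 CPM, the Jaml and Retnlg cluster 7232 and 7620 CPM and the G0s2 and Cd14 cluster 7021 and 7246 CPM. The lowest sum, 4934 and 5555 CPM, was that of the cluster led by Acod1 and Il1rn, genes induced on activation. The summed level thus varied among mature neutrophil clusters by about as much as between macrophage-like and neutrophil-like cells.

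**Figure D4:**
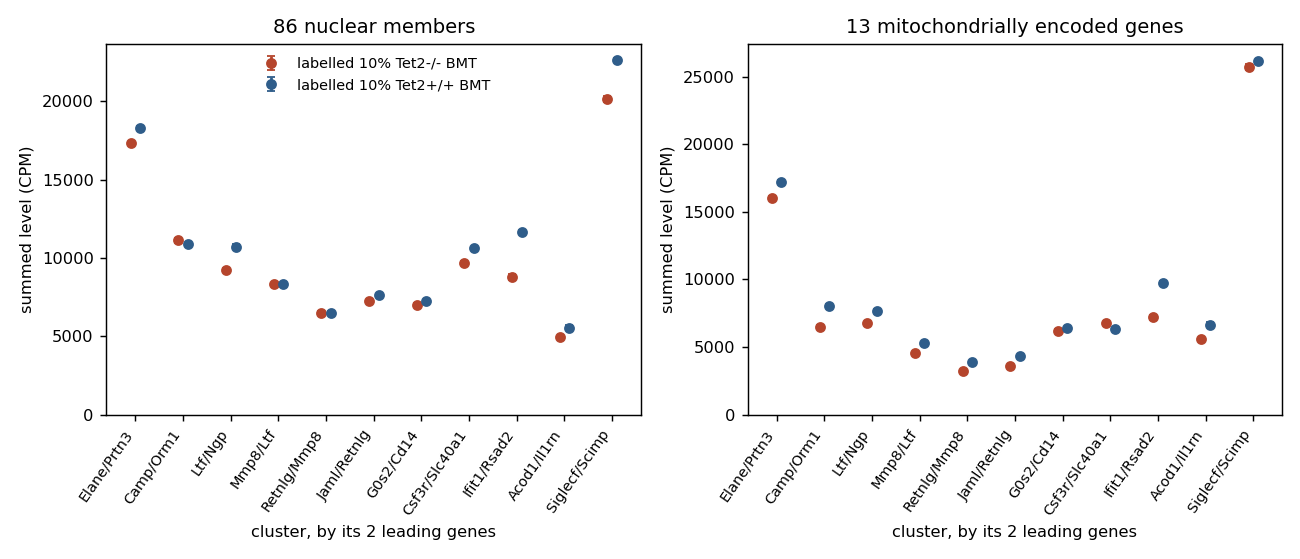
Summed level (CPM) of the 86 nuclear genes on the left and of the 13 mitochondrially encoded genes on the right, with 1 marker per library. Shown are 11 clusters whose best marker list was that of neutrophils or immature neutrophils, among them the unnamed Siglecf and Scimp cluster. The unnamed Obp2a and Obp1a cluster and the unnamed Ccl8 and C1qa cluster, also nearest to the neutrophil list, are not shown. Both sums are high in the Elane and Prtn3 cluster and the Siglecf and Scimp cluster, while the Acod1 and Il1rn cluster is lowest on the left, at 4934 and 5555 CPM, but not on the right.

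Immature neutrophil-like cells were compared as a class with neutrophil-like cells, at 2.27-fold and 1.81-fold of their summed level. Of 68 members that met the minimum, 36 were past 2-fold higher in both libraries, against 21.2% of all genes, and the medians were 1.26 and 1.04 beside -0.16 and -0.35 over all genes. By complex these were 19 of 31, 3 of 8, 6 of 12 and 8 of 17 for complexes I, III, IV and the ATP synthase. Part of the 68 met the minimum through immature neutrophil-like cells alone, since only 47 members met it in neutrophil-like cells. Ndufc2 and Uqcrb stood furthest apart. Ndufc2 stood at 138 and 125 CPM against 9.33 and 17.1 CPM, a ratio of 14.8 (12.6 to 17.6) and 7.29 (6.44 to 8.25), and Uqcrb at 269.7 and 274 CPM against 26.4 and 39.4 CPM, a ratio of 10.2 (9.22 to 11.3) and 6.95 (6.41 to 7.54). With the pseudocount Uqcrb was level with or ahead of Ndufc2, with log2 differences of 2.94 and 2.31 for Ndufc2 and 2.94 and 2.52 for Uqcrb. Along the lineage Ndufc2 stood at 157 and 163 CPM in the Elane and Prtn3 cluster, 59.4 CPM in each library of the Camp and Orm1 cluster and 4.69 and 8.60 CPM in the Retnlg and Mmp8 cluster. Atp5g1 stood at 203 and 184 CPM against 18.9 and 31.2 CPM, a ratio of 10.8 and 5.89, and Ndufa4 at 428 and 409 CPM against 57.5 and 72.9 CPM. A few members were not higher in the immature class: the ratio was 0.784 and 0.693 for Ndufa7, an accessory subunit of complex I, 0.979 and 0.878 for Cox7a2l and 0.920 and 0.803 for Atp5l.

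The cluster led by Siglecf and Scimp, with 372 and 1355 cells, stood out among cells with neutrophil markers. Its best list was that of neutrophils and it stayed unnamed; S100a8, an abundant neutrophil calcium-binding protein, stood at 34445 and 37363 CPM, and Epx, the eosinophil peroxidase, at 0 in both. Its summed level was 20153 CPM (19950 to 20358) and 22642 CPM (22533 to 22752), which is 2.84-fold and 2.64-fold that of neutrophil-like cells and 4.09-fold and 4.08-fold that of the Acod1 and Il1rn cluster. Of 72 members, 63 were past 2-fold higher than in neutrophil-like cells in both libraries, against 26.1% of all genes. The medians over the 72 were 1.54 and 1.43, beside 0.47 and 0.40 over all genes. Only 47 members met the minimum in neutrophil-like cells, so part of the 72 met it through this cluster alone. Complex I summed to 6317 and 6981 CPM there, complex III to 1541 and 1713 CPM, complex IV to 6107 and 6723 CPM and the ATP synthase to 5959 and 6974 CPM. All 4 sums lay above those of macrophage-like cells. The median share per cell was 2.1% and 2.3% after thinning to 1000 UMIs and 2.01% and 2.31% without it. Both lay above those of neutrophil-like cells, and thinning is no check on depth.

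Ndufa5 separated the Siglecf and Scimp cluster most among complex I genes, with 91.8 and 121 CPM against 5.49 and 8.17 CPM in neutrophil-like cells, a ratio of 16.7 and 14.8. Ndufb9 separated it least, with 363 and 347 CPM against 185 and 208 CPM, a ratio of 1.96 and 1.67. Uqcrb was 7.53-fold and 5.87-fold higher. Cox7b, an X-linked subunit of complex IV, stood at 363 and 414 CPM against 58.4 and 79.5 CPM, a ratio of 6.22 and 5.21, while Cox7a2l was only 1.26-fold and 1.30-fold higher. Atp5g1 stood at 204 and 263 CPM against 18.9 and 31.2 CPM, and Atp5l at 739 and 837 CPM against 459 and 511 CPM. In this cluster even the genes that did not separate macrophage-like from neutrophil-like cells, such as Atp5l and Ndufb9, were higher. Ndufc2, however, reached only 81.6 and 108 CPM, under its level in the Elane and Prtn3 cluster.

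The Acod1 and Il1rn cluster was set against the Csf3r and Slc40a1 cluster. Of 48 members that met the minimum, 12 were past 2-fold lower in both libraries, against 19.4% of all genes, which is close to the background. The medians were -0.99 and -0.89, beside -0.56 and -0.58 over all genes, so much of the shift was shared with other genes. The 12 were 8 of 18 complex I, 2 of 4 complex III, 0 of 12 complex IV and 2 of 14 ATP synthase genes. Ndufb7, of the complex I membrane arm, stood at 64.8 and 58.6 CPM against 192 and 203 CPM, a ratio of 0.337 and 0.289, while Ndufa2, of the peripheral arm, stood at 0.956 and 1.09 of the Csf3r and Slc40a1 level. Uqcr11 was at 0.314 and 0.328 of it and Atp5j2, subunit f of the ATP synthase, at 0.406 and 0.364, whereas Atp5md was at 0.723 and 0.851. Glycolytic genes summed to 4733 and 3803 CPM in the Acod1 and Il1rn cluster and 3077 and 3194 CPM in the other.

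Several subunits exist as alternative genes, and their use differed by cell type. Ndufa4 and its paralogue AA467197 (chr2:122636986-122641191), which lies outside the 86 genes and is known as a gene induced by inflammatory signals, were the sharpest case. The share of AA467197 in the sum of both was 0.295% and 0.589% in osteoclast-like, 5.58% and 9.99% in monocyte-like, 16.1% and 22.0% in macrophage-like and 60.4% and 60.7% in neutrophil-like cells. The paralogue therefore outnumbered Ndufa4 in neutrophil-like cells of both libraries and was nearly missing from osteoclast-like cells. Within the neutrophil lineage the share was 17.3% and 19.7% in the Elane and Prtn3 cluster, 74.5% and 73.2% in the Camp and Orm1 cluster and 84.4% and 83.4% in the Mmp8 and Ltf cluster. In the Siglecf and Scimp cluster it was 73.2% and 75.1%. AA467197 itself stood at 100 and 131 CPM in the Elane and Prtn3 cluster, 598 and 548 CPM in the Camp and Orm1 cluster and 87.5 and 113 CPM in neutrophil-like cells. In the Acod1 and Il1rn cluster AA467197 stood at 138 and 143 CPM against 100 and 122 CPM in the Csf3r and Slc40a1 cluster, while Ndufa4 stood at 27.6 and 50.6 CPM against 86.6 and 92.4 CPM. The most AA467197 was found in the unnamed Arg1 and Ccl22 cluster, 1413 and 862 CPM, with Ndufa4 at 235 and 217 CPM. Free RNA held 158 and 162 CPM of AA467197 and a share of 38.1% and 43.0%, above the share in monocyte-like, macrophage-like and osteoclast-like cells.

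**Figure D5:**
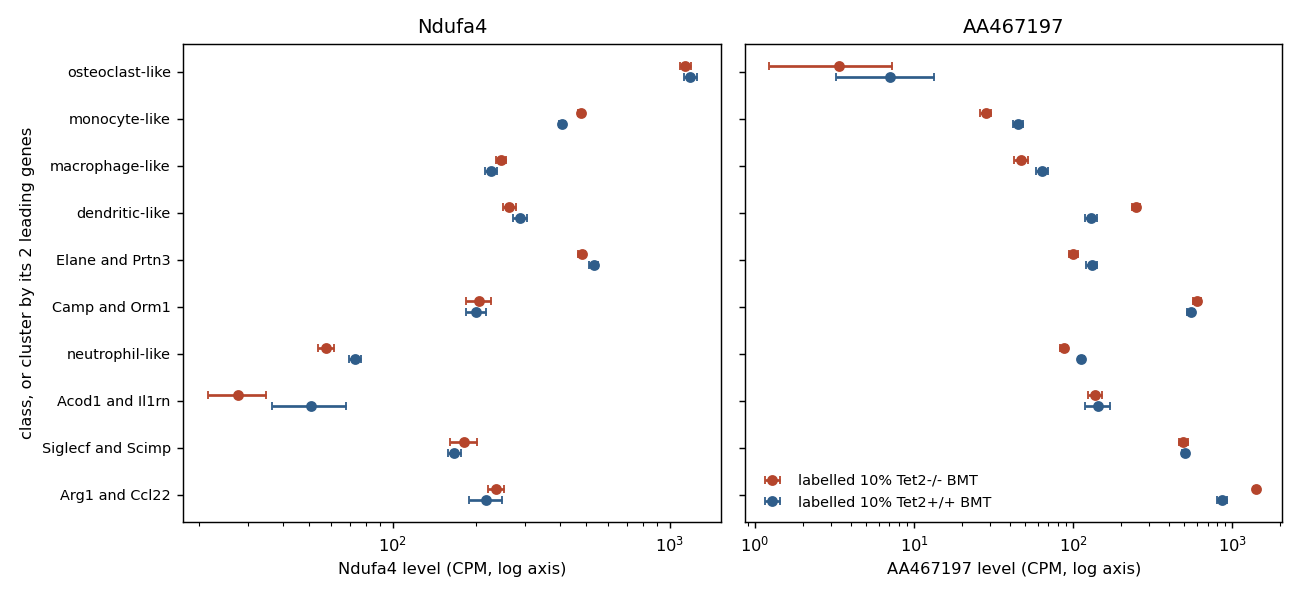
Level of Ndufa4 and of AA467197 (CPM, log axis) in 10 cell classes and clusters, with 1 marker per gene and library. AA467197 stands at 3.36 and 7.03 CPM in osteoclast-like cells and above Ndufa4 in neutrophil-like cells and the Siglecf and Scimp and Camp and Orm1 clusters.

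The tissue-restricted isoforms of complex IV were rare. Cox4i2, the oxygen-regulated form of Cox4, had 25 UMIs in all, whereas Cox4i1 stood at 371 and 397 CPM in neutrophil-like and 1942 and 1791 CPM in osteoclast-like cells. Cox6a2, the heart and muscle form of Cox6a, stood at 29.9 and 13.9 CPM in dendritic-like and 9.86 and 15.1 CPM in NK cell or ILC-like cells, above 1.73 and 3.33 CPM in free RNA. The general form Cox6a1 stood at 254 and 265 CPM in dendritic-like cells. Cox7a1, the muscle form of Cox7a, stood at 25.2 and 31.2 CPM in osteoclast-like cells, above 4.32 and 1.90 CPM in free RNA, beside 979 and 954 CPM of Cox7a2. Cox6b2, the testis form of Cox6b, stood at 19.2 and 17.3 CPM in the Elane and Prtn3 cluster, 17.9 and 16.5 CPM in dendritic-like cells and 0.413 and 0.628 CPM in neutrophil-like cells, with 13.4 and 9.04 CPM in free RNA. Each of these forms was thus a small part of its pair wherever it was found. Cox8b, the heart and muscle form of Cox8, had 1 and 9 UMIs in epithelial-like cells.

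Subunit c of the ATP synthase ring is made from Atp5g1, Atp5g2 and Atp5g3, which differ only in the import sequence and give the same mature protein. Atp5g1 made up 43.5% and 41.8% of the sum of the 3 in osteoclast-like cells, 28.9% and 29.5% in macrophage-like cells and 25.3% and 29.3% in neutrophil-like cells. Atp5g2 made up 52.6% and 50.7% in macrophage-like, 46.8% and 42.4% in neutrophil-like and 30.6% and 31.4% in osteoclast-like cells. The leading gene thus differed between osteoclast-like and macrophage-like cells in both libraries. Atp5g3 reached 36.6% and 39.3% in the Retnlg and Mmp8 cluster.

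Between the libraries, no member passed the size limit of 1.5-fold in the 3 main myeloid classes. In neutrophil-like cells the summed level in the library labelled Tet2-/- was 0.829 (0.823 to 0.835) of that in the library labelled Tet2+/+. None of 47 members was past 1.5-fold, against 2.77% of all genes higher and 2.68% lower, while 46 of 47 were below 0, with a median log2 ratio of -0.26 and a range of -0.53 to 0.03. Over all genes the median was -0.09 and 64.9% were below 0. Scaling by trimmed mean of M values (TMM) or median of ratios shifted the log2 ratios of this class by 0.21 and 0.24. The ratio of the summed level was then 0.962 and 0.979. These scaling factors rest on genes with UMIs in both libraries, without the minimum level set for the median above. The make-up of the class also differed: the low Acod1 and Il1rn cluster made up 15.8% and 4.53% of neutrophil-like cells, and the Ifit1 and Rsad2 cluster 4.93% and 14.6%. With each cluster weighted alike the ratio was 0.914. Within clusters it ranged from 0.754 in the Ifit1 and Rsad2 cluster to 0.998 in the Retnlg and Mmp8 cluster. The Csf3r and Slc40a1 cluster was at 0.910. The Acod1 and Il1rn cluster lay between that value and the Ifit1 and Rsad2 cluster. With the Siglecf and Scimp cluster counted as neutrophils, 24 members were past 1.5-fold and the ratio was 0.687. Among cells that carried Xist and no Y-linked UMIs in the library labelled Tet2-/- and the opposite in the other, 787 and 2549 neutrophil-like cells, it was 0.842.

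Of single members in neutrophil-like cells, Ndufb4, of the complex I membrane arm, stood at 45.6 and 68.6 CPM, a ratio of 0.664 (0.608 to 0.726), while Ndufb11 stood at 113 and 111 CPM. Uqcr11 of complex III stood at 67.8 and 97.3 CPM, a ratio of 0.697, and Uqcrh at 191 and 212 CPM. In complex IV, Cox6c stood at 150 and 211 CPM, a ratio of 0.708 (0.674 to 0.744), and Cox7a2l at 115 and 117 CPM. Atp5mpl, a small ATP synthase-associated proteolipid, stood at 70.4 and 106 CPM, a ratio of 0.663 (0.617 to 0.711), and Atp5f1, subunit b of the stalk, at 162 and 180 CPM. Each complex thus held a gene well below 1 and another nearer to it. With the pseudocount none of them reached 1.5-fold.

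In monocyte-like cells the summed level was 1.072 (1.067 to 1.076) times as high in the library labelled Tet2-/-. None of 74 members was past 1.5-fold, against 1.75% of all genes higher and 1.31% lower; 61 were above 0 and 17.6% below, beside 40.9% of all genes below 0, with a median of 0.15 beside 0.04. The proliferating Pclaf and Top2a cluster made up 22.9% and 11.9% of the class, and without it the ratio was 1.04. Cox5a of complex IV stood at 428 and 351 CPM, a ratio of 1.22, Ndufs4 of complex I at 147 and 115 CPM, a ratio of 1.27, and Atp5g1 at 284 and 230 CPM, a ratio of 1.24. Others lay the other way, such as Ndufa6 at 307 and 347 CPM and Atp5mpl at 294 and 334 CPM. Over the class as a whole most members, like most genes, were thus slightly above the other library. With each cluster weighted alike the ratio was 1.01. By cluster, the summed level was higher in the library labelled Tet2-/- in the Fn1 and Ccr2 cluster. It was slightly lower there in the Pclaf and Top2a and the Ace clusters.

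In macrophage-like cells the ratio of the summed level was 0.953 (0.946 to 0.961). None of 72 members was past 1.5-fold, against 0.791% of all genes higher and 1.65% lower; 45 (62.5%) were below 0, beside 55.9% of all genes, with a median of -0.05 beside -0.03. The direction turned with the choice of cells: among cells of the sex that prevailed in each library, 335 and 420 macrophage-like cells, the ratio was 1.02. Ndufa3 stood at 149 and 199 CPM, a ratio of 0.748, and Atp5md, an ATP synthase-associated protein of the membrane part, at 175 and 240 CPM, a ratio of 0.730. Cox6b1 stood at 370 and 423 CPM and Ndufa4 at 246 and 227 CPM. In immature neutrophil-like cells 0 of 69 members were past 1.5-fold, against 2.77% of all genes higher and 0.611% lower, and in dendritic-like cells 0 of 73, against 0.906% and 0.943%. In the Siglecf and Scimp cluster 0 of 72 were, against 1.45% and 1.28%, while 62 of 72 members (86.1%) were below 0, beside 52.7% of all genes, with a median of -0.15 beside -0.01. In osteoclast-like cells the ratio of the summed level was 1.01.

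A small set of genes was lower in the library labelled Tet2-/- in each of 10 classes, with the mast cell or basophil-like class left out. Over 10 classes and 78 members, 7 were below a ratio of 1 in all 10 and 0 were above 1 in all 10, against 1.98% of all genes lower and 0.78% higher throughout. They were Ndufa1, Ndufa3 and Ndufa7 of complex I, Cox6c and Cox7c of complex IV and Atp5md and Atp5mpl of the ATP synthase. The median ratio over classes was 0.755 (range 0.719 to 0.896) for Ndufa3, 0.797 for Ndufa1, 0.814 for Atp5mpl, 0.826 for Atp5md, 0.888 for Cox6c, 0.919 for Cox7c and 0.943 for Ndufa7. The highest class ratio was close to 1 for Cox7c (0.996), Cox6c (0.994), Atp5md (0.985) and Ndufa7 (0.984). It was 0.884 for Ndufa1 and 0.885 for Atp5mpl. In free RNA of the same libraries the ratio was also below 1 for 6 of the 7, among them 0.770 for Ndufa3 and 0.786 for Ndufa1, and was 1.02 for Cox7c. A ratio below 1 for these genes was thus seen both in cells and, for 6 of them, in RNA outside cells; whether it belongs to the marrow, the sex of the cells or the library cannot be told apart.

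The other genes of the pathway did not all follow the nuclear subunits. Mitochondrially encoded genes summed to 5038 and 5893 CPM in neutrophil-like and 40612 and 36683 CPM in macrophage-like cells, a ratio of 8.06 (8 to 8.12) and 6.23, beside 2.09 and 1.82 for the nuclear members, and 12 of 12 were past 2-fold. Nuclear and mitochondrial transcripts thus differed by unequal amounts between these classes. In the Siglecf and Scimp cluster the mitochondrially encoded sum was 25732 and 26144 CPM, 5.11-fold and 4.44-fold that of neutrophil-like cells, again with 12 of 12 past 2-fold. Complex II, the succinate dehydrogenase that feeds electrons without a mitochondrial subunit, was 2.29-fold and 1.91-fold higher in macrophage-like than in neutrophil-like cells, with 1 of 4 genes past the limit, beside 31.6% of all genes. Both cytochromes, c and c1, and 5 of 6 metabolite carriers were past it. So were 1 of 1 complex III assembly gene and 1 of 1 ATP synthase regulator that met the minimum; of 4 complex IV assembly genes 2 were higher and 1 lower, of the regulators 0 of 1, and 0 of 6 other complex I assembly genes met the minimum. Glycolytic genes summed to 0.594 and 0.703 of the neutrophil-like level, but by gene 0 of 12 were higher and 2 of 12 lower, beside 18.4% of all genes lower. In the Siglecf and Scimp cluster the glycolytic sum was 1.08-fold that of neutrophil-like cells in each library, with 1 of 12 higher and 1 of 12 lower.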

How the data were processed

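Per the labels' protocols, about 20000 sorted gingival cells per library were the loading target for 10x Chromium 3′ chemistry (version 3.1). Per the submitters' processing notes, the authors used Cell Ranger 6.1.2 and mm10; per the file headers the matrices name Cell Ranger 4. The deposited values are raw UMI counts per gene and barcode, not normalized, with empty barcodes included. Barcodes with at least 500 UMIs, at least 250 genes and at most 10% mitochondrial UMIs were kept (248 and 489 removed). Median depth was 5920 and 5009 UMIs per cell.

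Clustering (scanpy 1.11.5, leidenalg 0.10.2, resolution 1, 29 clusters) used 2000 variable genes without the 86 genes, their pathway lists, and ribosomal, mitochondrial, haemoglobin and sex-linked genes, with 30 principal components and 20 neighbours. Clusters were named from 17 marker lists where at least 3 markers were detected in 10% of cells with a log2 excess of 0.5 and the leading genes did not go against the name. Scrublet marked 0 and 346 cells; its calls were not used and doublets remain, except where the 8% highest scores were removed as an alternative.

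For each class of a library, UMIs were added up over its cells and expressed as CPM of the class total. Levels have exact Poisson limits and ratios exact binomial (Clopper-Pearson) limits. The size limits, 1.5-fold between libraries and 2-fold between classes in both libraries, apply to log2(CPM + 10) of genes with at least 50 CPM in either and 100 UMIs over both; ratios printed for single genes carry no pseudocount. In any comparison of classes or clusters, a gene can meet the minimum through the higher one alone. With 1 library a group no test or p-value was computed. The size limit between libraries and the limits of ratios were tried on counts simulated from a neutrophil-like profile with known folds. Clustering, cell type names, free RNA and differences between cells were not simulated.

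Named are, in each comparison and complex, the genes with the highest and the lowest ratio, the isoform sets, and the 3 genes farthest from the shared profile. Ndufa5, Ndufb9, Ndufaf3, Ndufaf4, Ndufc2 outside its own comparisons, Ppargc1b and Tfam were also named after their values were seen. So were the genes with 1 direction in the 10 classes compared. Members, lists and comparisons were chosen with earlier results of these data known. Alternatives changed the mitochondrial limit, minimum depth, doublets, clustering resolution, cell and cluster weights, free RNA, class totals, scaling, pseudocount, minimum level and the sex of the cells. Promoter windows are from RefSeq (GRCm38.p6) and gene positions from GENCODE M21. Protein sequences were not used here.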

Additional observations from a re-analysis of the deposited data

Results flagged for a closer look

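Signal of the 86 genes was present outside the kept cells. In barcodes with 1 to 50 UMIs, which were used in no comparison between groups, they summed to 17235 CPM in the library labelled 10% Tet2-/- BMT and 17665 CPM in the library labelled 10% Tet2+/+ BMT. Both values lie above the neutrophil-like level of the same library, 7104 and 8568 CPM, and under that of monocyte-like cells, 22453 and 20952 CPM. The share of free RNA in each cell was not estimated, and 10% was assumed where it was subtracted. In neutrophil-like cells, 10% of the free RNA level exceeded the counted level of Cox6b2 in both libraries. The same held for Ndufc2 in the library labelled Tet2-/-. Values with free RNA subtracted thus rest on too large a share in these cells.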

How the results depend on the processing

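No paired analysis was possible because each group has 1 library. Alternatives that added or left out clusters were chosen after seeing the data. For the ratio between libraries in neutrophil-like cells, 0.829 as reported, the values were 0.838 with the 8% highest Scrublet scores removed, 0.859 and 0.862 at clustering resolutions 0.5 and 2, 0.822 with cells weighted equally, 0.914 with clusters weighted alike, 0.792 with free RNA subtracted at 10%, 0.962 with TMM, 0.979 with median of ratios and 0.842 for Xist-carrying against Y-carrying cells. Adding the unnamed clusters nearest to the neutrophil markers gave 0.750, and adding only the Siglecf and Scimp cluster 0.687. In monocyte-like cells, 1.07 as reported, the same alternatives gave 1.06 without the highest doublet scores, 1.02 at resolution 2, 1.01 with clusters weighted alike, 1.08 with free RNA subtracted, 1.06 with TMM, 1.06 with median of ratios, 1.10 for Xist-carrying against Y-carrying cells and 1.04 without the cycling cluster. In macrophage-like cells, 0.953 as reported, the ratio turned to 1.02 for Xist-carrying against Y-carrying cells, and the cause was not tested. It was 0.945 at a mitochondrial limit of 5%, 0.915 with cells weighted equally, 0.939 with clusters weighted alike, 0.968 with ribosomal, mitochondrial and haemoglobin genes left out of the total, 0.970 with TMM and 0.983 with median of ratios.

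The ratio of macrophage-like to neutrophil-like cells, 2.09 and 1.82 as reported, stayed above 1 in all 13 alternatives of each library. It was 2.13 and 1.87 at a mitochondrial limit of 5%, 2.12 and 1.84 at 20%, 2.12 and 1.86 without the highest doublet scores, 2.06 and 1.87 at resolution 2, 2.06 and 1.85 with cells weighted equally, 2.02 and 1.96 with clusters weighted alike, 2.44 and 2.03 with free RNA subtracted and 2.50 and 2.13 with the reduced total. At resolution 0.5 the library labelled Tet2+/+ gave 1.89, and without the shallow macrophage-like cluster 1.79. Adding the unnamed neutrophil clusters gave 1.75 and 1.38, and adding the Siglecf and Scimp cluster 1.77 and 1.28. Members past 1.5-fold between libraries in neutrophil-like cells, 0 as reported, numbered 2 with free RNA subtracted, 1 with a pseudocount of 1 CPM, 10 with the unnamed clusters and 24 with the Siglecf and Scimp cluster. Members past 2-fold between the classes, 36 as reported, numbered 15 and 11 with those additions. For the added alternatives and for the others the cause was not tested.

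Depth limits the osteoclast-like class, with 38 and 26 cells, and the mast cell or basophil-like class, with 10 and 37 cells. The number of mice behind each library is not given in the labels, so genotype, sex of the cells, sort and library cannot be told apart. Class names were rebuilt from markers, and the neutrophil results rest on where the Siglecf and Scimp cluster is placed.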
